A study of Mus musculus with 2 samples.

Results

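The coding spans of mouse chromosome 12 were examined in a table of DNase I hypersensitivity from M1 cells, to see whether the raised signal of this chromosome was even along its length or confined to segments. All rows of chromosome 12 were taken, and each gene was represented by the transcript that covered most windows. This gave 816 of the 22605 genes in the table, from 1710 of its 55432 rows. Chromosome 12 was picked because its values were already known to be high, so its own level is given as a description without a test.

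M1 is a murine myeloid progenitor line, established from a leukemia and labelled as bone marrow. The study compared untreated M1 cells with M1 cells kept in medium with interleukin-6 (IL-6) for 4 to 5 days, a cytokine that makes this line differentiate. Both groups were the same line at the same passages in RPMI 1640 with horse serum, with no other allele or agent. Each group was 1 library, and no replicate supports any difference between them. The intervals below cover counting error only.

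DNase I cuts DNA where it is not wrapped tightly on nucleosomes, and small fragments freed by a pair of nearby cuts mark promoters and other open elements. Over the coding span of a gene, such reads come both from a few strong open sites and from a low level spread along introns and exons. Mouse chromosome 12 carries the immunoglobulin heavy chain locus near its far end, the serpin cluster that encodes protease inhibitors, the imprinted *Dlk1* to *Dio3* domain, and very long genes of neurons such as *Nrxn3* and *Npas3*. It also holds regulators of blood cells, among them *Id2*, *Fos*, *Batf* and *Nfkbia*.

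The deposited values were means over 700-bp windows, laid end to end along each chromosome, that a coding span touched. They could be turned back into reads, since 1 read was worth 1.00 in the untreated column and 1.04 in the IL-6 column. The 816 spans held between 1 and 2197 windows with a median of 15.5, and 78 of them held a single window. The windows of 494 spans (60.5%) also held the start site of the listed transcript. Over non-overlapping spans of all autosomes there were 8945482 reads in the untreated library and 8416418 in the IL-6-treated library, of which chromosome 12 had 427304 and 419230. Of 10 markers of myeloid cells 9 were found on autosomes, with means from 2.75 to 87.7 untreated and from 3.40 to 35.99 after IL-6, and their medians of 10.8 and 9.20 lay beside 6.67 and 9.23 for 5 B-cell markers and 6.95 and 8.70 for 5 T-cell markers. The medians of 3 epithelial markers were 9.33 and 12.9, and those of 2 erythroid markers 9.50 and 11.0. The myeloid median was thus the highest in the untreated library, close to the epithelial and erythroid ones, and was not the highest after IL-6. Relative to genes of like GC content, as defined below, the untreated medians were 1.21 (myeloid), 0.581 (B-cell), 0.861 (T-cell), 0.622 (epithelial) and 0.721 (erythroid). After IL-6 they were 0.973, 0.808, 0.934, 1.01 and 0.799 in the same order.

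Sequences are shown first for 4 promoters with strong signal, whose counted windows hold the bases before the start site. Each is the 200 bases before the outermost annotated start site, given 5′ to 3′ on the strand of the gene, from the NCBIM37 genome with GENCODE M1 start sites. All of these bases lay within counted windows and overlapped no annotated transcript, which held for 256 listed transcripts of the chromosome. *Rcor1*, a corepressor subunit that works with REST, is shown because the window around its start was the strongest that could be isolated. *Rhob*, a small GTPase, *Glrx5*, a glutaredoxin of iron-sulfur cluster assembly, and *Pld4*, a phospholipase D family member of myeloid cells, had the highest untreated means among the named genes that met this condition. Capitals mark GC boxes (GGGCGG, or CCGCCC on the other strand) and CCAAT boxes (CCAAT, or ATTGG).
Rcor1, chr12:112277361-112277560, plus strand: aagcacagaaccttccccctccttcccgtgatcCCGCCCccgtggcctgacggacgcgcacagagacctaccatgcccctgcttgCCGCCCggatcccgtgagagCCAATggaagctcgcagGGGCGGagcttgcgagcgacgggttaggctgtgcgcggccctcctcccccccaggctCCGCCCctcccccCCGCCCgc
Rhob, chr12:8506792-8506991, minus strand: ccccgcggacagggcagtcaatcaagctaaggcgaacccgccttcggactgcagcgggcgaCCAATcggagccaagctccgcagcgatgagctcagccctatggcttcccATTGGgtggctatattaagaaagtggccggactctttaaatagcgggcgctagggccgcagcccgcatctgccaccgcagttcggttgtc
Glrx5, chr12:106270699-106270898, plus strand: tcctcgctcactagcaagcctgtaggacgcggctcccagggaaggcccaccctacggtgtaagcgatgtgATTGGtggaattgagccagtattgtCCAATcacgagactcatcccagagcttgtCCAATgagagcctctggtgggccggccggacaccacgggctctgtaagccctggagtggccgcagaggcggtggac
Pld4, chr12:113998666-113998865, plus strand: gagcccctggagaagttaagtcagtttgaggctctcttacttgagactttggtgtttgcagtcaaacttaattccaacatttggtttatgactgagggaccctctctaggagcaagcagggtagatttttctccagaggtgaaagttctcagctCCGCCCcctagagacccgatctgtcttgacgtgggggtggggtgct

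The *Rcor1* sequence was 72.0% GC with 19 CG steps, 5 GC boxes and 1 CCAAT box. *Rhob* was 61.5% GC with 17 CG steps and 2 CCAAT boxes, and *Glrx5* was 61.0% GC with 11 CG steps and 3 CCAAT boxes. *Pld4* differed from these, with 50% GC, 3 CG steps and 1 GC box. Over the 816 upstream sequences of the chromosome the median was 55.5% GC with 9 CG steps, against 55.5% and 7 over all 22600 sequences without unknown bases. A GC box was found in 39.95% of the chromosome 12 sequences and in 38.7% of all, and a CCAAT box in 32.6% and 30.5%. TATAAA was found in 6.99% of the chromosome 12 sequences and 10.2% of all, and in none of the 4 shown. The STAT-type motif TTCNNNGAA (6.50% on chromosome 12, 5.39% of all), CACGTG (4.90% and 5.50%), TGAGTCA (1.96% and 3.01%) and CCGGAAG (7.60% and 7.73%) were also absent from these 4 windows. These are matches of letters on both strands and say nothing of binding.

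The single window of *Rcor1* (chr12:112277201-112277900) held 1201 reads in untreated cells and 182 after IL-6, a ratio of 0.157 (95% Clopper-Pearson interval 0.134 to 0.184). *Rhob* held 641 and 141 reads in 2 windows (ratio 0.228, 0.189 to 0.274). *Glrx5* held 1537 and 449 reads in 12 windows (0.303, 0.272 to 0.337), and *Pld4* held 985 and 249 in 12 windows (0.262, 0.227 to 0.302). On the deposited scale all 4 were higher in the untreated library by more than counting error. Under the scaling by strong single windows, described with the comparison of the libraries, the intervals of *Glrx5* and *Pld4* would include 1.

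The second set is shown because it holds near-identical members, of which *Srp54a* and *Srp54b* had almost no reads. *Srp54a*, *Srp54b* and *Srp54c* encode copies of the signal recognition particle subunit that binds signal peptides, and lie near each other in bin 6. The first 60 coding bases are shown, all on the plus strand, and any base that differed from *Srp54a* would be in capitals. There were 0 differences.
Srp54a, chr12:56190189-56190248: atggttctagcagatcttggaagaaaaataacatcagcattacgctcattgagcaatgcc
Srp54b, chr12:56265249-56265308: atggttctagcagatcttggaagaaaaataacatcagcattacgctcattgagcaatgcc
Srp54c, chr12:56340313-56340372: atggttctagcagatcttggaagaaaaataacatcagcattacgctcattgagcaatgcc

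The coding spans of *Srp54a* and *Srp54b* were both 23690 bp, and 98.1% of the 32-base stretches of *Srp54a* also stood in *Srp54b*, against 73.4% that stood in the 37600-bp span of *Srp54c*. *Srp54a* had 4 reads in each library over 35 windows. *Srp54b* had 0 reads in both libraries over 35 windows, which allows a mean of up to 0.0857 per window in untreated cells and 0.0890 after IL-6. *Srp54c* had 96 and 120 reads over 54 windows. Between them *Fam177a* (21 windows) and 1700047I17Rik2 (22 windows) had 0 reads, and all of their 32-base stretches were found elsewhere in the genome as well.

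Over all 816 genes the median mean was 9.82 in untreated cells and 10.4 after IL-6, against 8.0 and 8.31 for 20832 genes of the other autosomes. The chromosome 12 median was thus 1.23 times the reference in untreated cells and 1.25 times after IL-6. It stood at place 5 of 19 autosomes in the untreated library and 4 of 19 in the IL-6-treated library. Counted as reads per window over non-overlapping spans, chromosome 12 had 8.78 against 7.77 untreated and 8.94 against 7.57 after IL-6, which are smaller gaps.

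The medians of 10-Mb bins, numbered 1 to 13 from the start of the sequence, differed along the chromosome. In untreated cells bin 1 stood highest at 11.9 (quartiles 7.08 and 20.4, 42 genes), followed by bin 12 at 11.8 (206 genes), bin 8 at 11.0 (95 genes), bin 9 at 10.4 (133 genes) and bin 11 at 10.1 (99 genes). Bins 3 and 7 were at 9.50 and 8.19. Bins 10, 4, 6 and 2 were just under the reference at 7.74, 7.67, 7.48 and 7.22. Bin 5 was low at 4.67 (15 genes), and bin 13, with only 5 genes, at 3.21. Thus 7 of 13 bins were above the median of the other autosomes. That reference is a median over genes. The 239 bins of other autosomes with at least 10 genes had a median of 6.60 (quartiles 5.0 and 9.33), which lay under it.

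The IL-6-treated library gave a similar order. Bin 1 was again highest at 12.5, then bin 11 at 12.01, bin 12 at 11.4, bins 8 and 9 both at 10.9, bin 3 at 9.83 and bin 4 at 9.34. Bins 2, 10, 6 and 7 were at 8.31, 7.83, 7.17 and 7.09, and bins 5 and 13 at 6.87 and 5.66. Here too 7 of 13 bins were above the reference, with bin 4 in place of bin 7, and bin 2 was equal to it. The 239 bins of other autosomes had a median of 7.11 (quartiles 5.77 and 9.44), again under the reference. Over the 12 bins with at least 10 genes, the highest median was 2.54 times the lowest in untreated cells and 1.81 times after IL-6. The quartiles within a bin were wider than most gaps between bins.

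**Figure D1:**
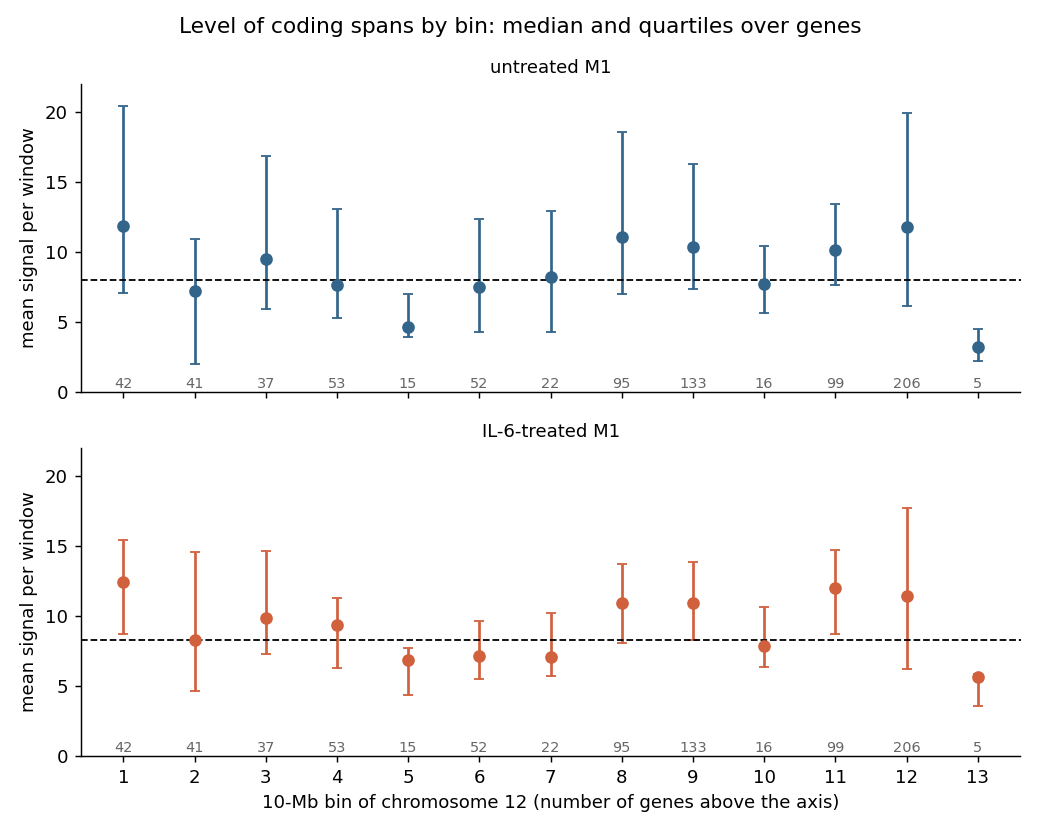
Median (points) and quartiles (bars) over genes of the mean signal per 700-bp window in each 10-Mb bin of chromosome 12, in untreated (top) and IL-6-treated M1 cells (bottom). Grey numbers count the genes, and the dashed line is the median over genes of the other autosomes (8.0 and 8.31). In each library 7 of 13 bins lie above it, while the median over 239 bins of other autosomes was 6.60 and 7.11.

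GC content differed between the bins as well. The median GC content of the spans was 40.2% in bin 5 and 37.4% in bin 13, against 45.4% in bin 1, 47.4% in bin 11 and 46.0% in bin 12. Level and GC content did not go together in every bin, since bin 2 had the highest GC content (48.1%) with a level under the untreated reference, and bin 7 had 40.8% with a level just above it. Over the 12 bins with at least 10 genes, the correlation of median GC with median level was 0.551 in untreated cells and 0.658 after IL-6. Over 66 long spans, of at least 150 windows with under 20% repeated sequence, it was 0.851 and 0.962. The points of each correlation share a library and a chromosome, so these are descriptions only.

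Levels also rose with GC content over the pooled other autosomes. Genes were therefore placed in 12 GC classes, mostly of 2 percentage points, and the level of each gene was divided by the median of other autosomal genes in its class. This quotient is called the relative level. Chromosome 12 genes were higher than the other autosomes in 11 of 12 classes in each library. At 38 to 40% GC the medians were 5.50 on chromosome 12 (64 genes) against 3.56 in untreated cells, and 5.89 against 4.19 after IL-6. At 42 to 44% GC they were 9.45 (147 genes) against 6.0, and 9.86 against 6.68. At 50 to 52% GC they were closer, 14.7 (46 genes) against 13.4, and 16.1 against 12.9. The exception was the class from 56% GC upwards, where 69 chromosome 12 genes had medians of 14.3 against 17.8 untreated and 15.9 against 16.1 after IL-6.

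**Figure D2:**
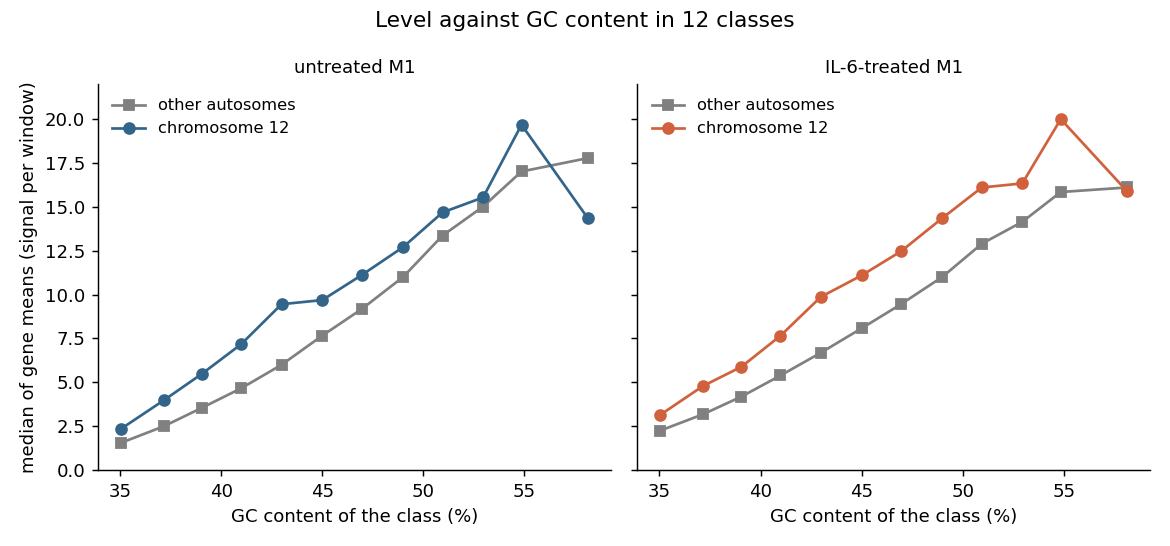
Median of gene means (signal per window) against the GC content of the span in 12 classes, for chromosome 12 (circles) and the other autosomes (squares), in untreated (left) and IL-6-treated M1 cells (right). Both rise with GC content up to the class from 54%, after which chromosome 12 is lower, and chromosome 12 lies above in 11 of 12 classes in each library.

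The median relative level of the 816 genes was 1.28 (95% order-statistic interval 1.23 to 1.36) in untreated cells and 1.35 (1.32 to 1.38) after IL-6. The interval treats genes as separate points, although neighbours share windows. In untreated cells 66.4% of the genes were above the median of their class, and after IL-6 74.5%, beside 50.4% and 50.9% of the genes of all autosomes. Since the chromosome was chosen for its level, nothing is read from these shares. Chromosomes 9 and 15 were higher still, at 1.39 and 1.38 untreated and 1.44 and 1.41 after IL-6, and chromosomes 3 and 8 were at 1.22 and 1.19 after IL-6. The other autosomes lay between 0.891 and 1.03 after IL-6, and chromosome X was at 0.40.

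On this scale the chromosome was raised in nearly every bin. After IL-6 all 13 bins had a median above 1, from 1.24 in bin 2 and 1.26 in bins 3 and 6 to 1.51 in bin 8 and 1.63 in bin 7. Bins 1, 4, 5, 9, 10, 11, 12 and 13 were at 1.44, 1.36, 1.27, 1.35, 1.37, 1.32, 1.33 and 1.39. The highest of the 12 filled bins was 1.31 times the lowest. The low bin 5 of the first scale, with *Immp2l* and the neuronal adhesion gene *Nrcam*, was thus no longer apart from its neighbours.

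In untreated cells 12 of 13 bins were above 1. Bins 7 and 8 were highest at 2.09 and 1.75, bin 1 was at 1.51, and 9 others lay between 1.14 and 1.35. Bin 2 was the exception at 0.846 (0.494 to 1.35), and 9 of its 41 genes consisted by over 50% of repeated sequence. Bin 3, at 1.15, had 8 such genes of 37, and bin 12 had 38 of 206. The highest of the 12 filled bins was 2.47 times the lowest, close to the 2.54 times of the levels themselves. After IL-6 the spread was narrower than before IL-6 on both scales.

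**Figure D3:**
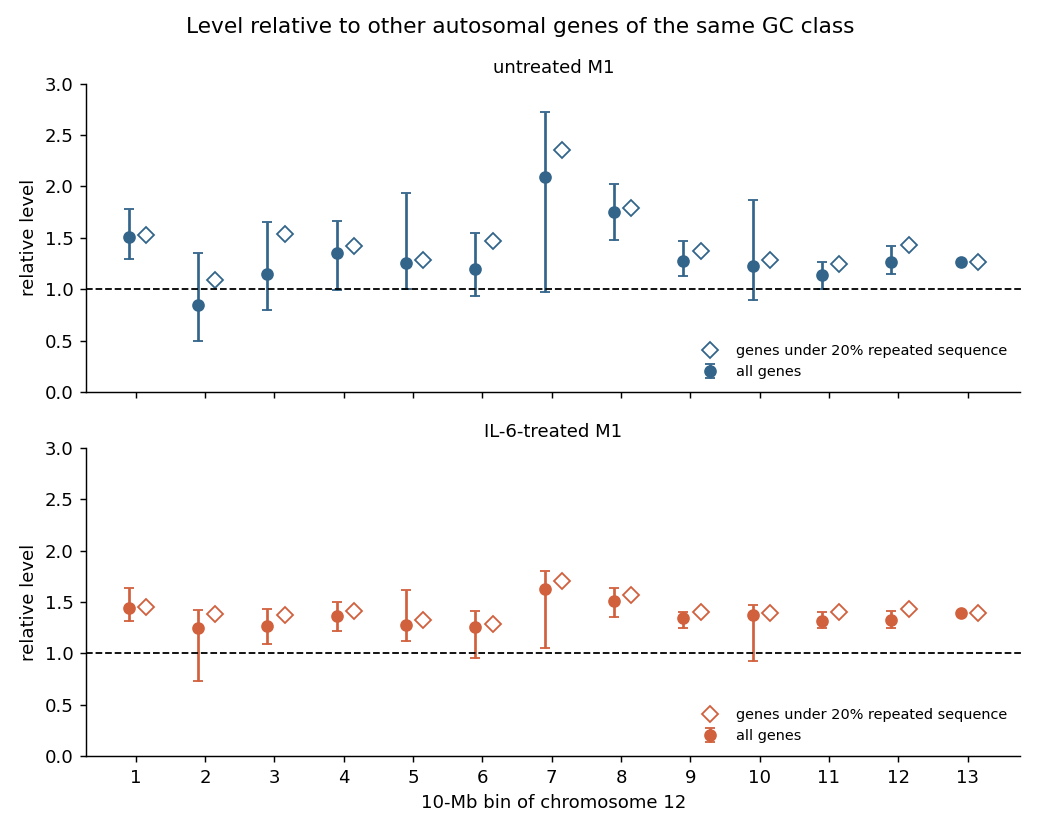
Relative level by 10-Mb bin of chromosome 12 in untreated (top) and IL-6-treated M1 cells (bottom). Filled points are medians over all genes with 95% order-statistic intervals (none for the 5 genes of bin 13), open points are medians over genes with under 20% repeated sequence, and the dashed line is 1; all 13 filled points lie above it after IL-6 and 12 of 13 in untreated cells.

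The same bins were taken on the other autosomes to place these values. Of 239 bins with at least 10 genes there, 99 (41.4%) were above 1 after IL-6 and 93 (38.9%) in untreated cells. After IL-6 43 of the 239 reached 1.24, the lowest bin of chromosome 12. With bins moved by 5 Mb the lowest bin was 0.863, which 212 of 244 reached. Of the 43, 11 were on chromosome 9 (of 13 bins), 10 on chromosome 3 (of 16), 6 on chromosome 15 (of 11) and 6 on chromosome 8 (of 13). Chromosomes 12 and 15 were the 2 autosomes with every such bin above 1 after IL-6, and there was no such autosome in untreated cells. The highest bin of other autosomes was 1.68 times their lowest in the median autosome after IL-6 and 2.08 times in untreated cells. For chromosome 12 it was 1.31 times after IL-6 and 2.47 times in untreated cells. With bins moved by 5 Mb this order turned around after IL-6, to 1.91 times on chromosome 12 against 1.78 in the median autosome, and in untreated cells it was 2.52 against 2.17. Chromosome 12 was therefore not more even than other autosomes in relative level in a way that held for both sets of bins. On the levels themselves its range was narrower in both libraries, with 2.54 times against 4.58 in untreated cells and 1.81 times against 3.47 after IL-6, and with moved bins 2.57 against 4.23 and 2.48 against 2.95. None of this was tested, since chromosome 12 was chosen by its level.

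Bin edges mattered. With bins moved by 5 Mb, 12 of 13 bins were above 1 in each library. After IL-6 the bins from 55 to 65 Mb (1.16) and from 115 to 125 Mb (1.09) lay under the lowest unmoved bin (1.24). In untreated cells the bin from 5 to 15 Mb was at 1.01 and that from 115 to 125 Mb at 1.09. The bin from 15 to 25 Mb was below 1, at 0.802 in untreated cells and 0.863 after IL-6 (38 genes). It holds ordinary genes with raised levels, such as *Lpin1*, a phosphatidate phosphatase (1.36 and 1.43), and *Rock2*, a protein kinase (2.42 and 1.47). *Pdia6*, a protein disulfide isomerase, was at 2.73 and 1.83, and *Nol10*, a nucleolar protein, at 1.71 and 1.74. Others with little repeated sequence were under 1 in untreated cells but not after IL-6. Among them were *Trib2* (0.786 and 1.04), *Ntsr2* (0.846 and 1.31), *Greb1* (0.919 and 1.38) and *Asap2* (0.969 and 1.27). Beside these lay predicted genes with almost no reads. 9030624G23Rik had 37 and 33 reads in 76 windows (0.0635 and 0.0558) with 86.9% repeated sequence, and Gm10479 had 21 and 27 reads in 27 windows with 87.5%. Over the 19 genes of this stretch with under 20% repeated sequence, the medians were 1.43 and 1.38.

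Repeated sequence set most of the low members apart. A 32-base stretch was counted as repeated where the same letters occurred more than once in the genome, on either strand. In 90 of 816 genes over 50% of the span was repeated, and their median relative level was 0.283 in untreated cells and 0.25 after IL-6. In the 631 genes with under 20% it was 1.42 in both libraries. Of 45 members under 0.25 in both libraries, 41 had over 40% repeated sequence. No reads in either library were found for 15 members (1.84%, beside 2.32% on the other autosomes), and 12 of these were over 50% repeated.

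Part of these low members lay in clusters. Besides the *Srp54* block, *Dpf3*, a chromatin reader of the BAF complex, had 358 and 444 reads over 194 windows (0.201 and 0.251) with 80.5% repeated sequence. Within it, 77 windows in a row (chr12:84316401-84370300) held 0 reads in both libraries. From 89 to 90 Mb, 12 genes had medians of 0 and 0.127. Medians were not as low in the immunoglobulin heavy chain region. There 49 genes from 115 to 116 Mb were at 0.857 and 0.854, and 38 genes from 116 to 117 Mb at 1.06 and 0.815. Some low members had little repeated sequence. *Ifi27l2a*, an interferon-induced gene, had 6 reads and 1 read over 3 windows with 6.38% repeated sequence, and the single-window genes Gm16632 and Gm7005, both near the heavy chain locus, had 0 reads with 1.86% and 2.14%.

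With repeated genes set aside, 631 genes remained. The class medians they were divided by still held all genes of the other autosomes, without a repeat filter, and the filter moved the untreated median from 1.28 to 1.42. All 13 bins were then above 1 in both libraries. Over the 12 filled bins the medians ran from 1.09 to 2.35 in untreated cells and from 1.29 to 1.71 after IL-6. A running median over 41 neighbouring genes stayed between 1.09 and 2.73 in untreated cells and between 1.24 and 1.93 after IL-6, and its quartiles were 1.30 and 1.52, and 1.37 and 1.46. It did not drop below 1 at any of 591 positions in either library. When the chromosome was cut once with at least 50 genes on each side, at the point that gave the largest gap, the medians were 1.38 against 1.44 after IL-6 and 1.499 against 1.28 in untreated cells. The cut fell at different places in the 2 libraries, at position 66021793 after IL-6 and 104137527 in untreated cells.

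**Figure D4:**
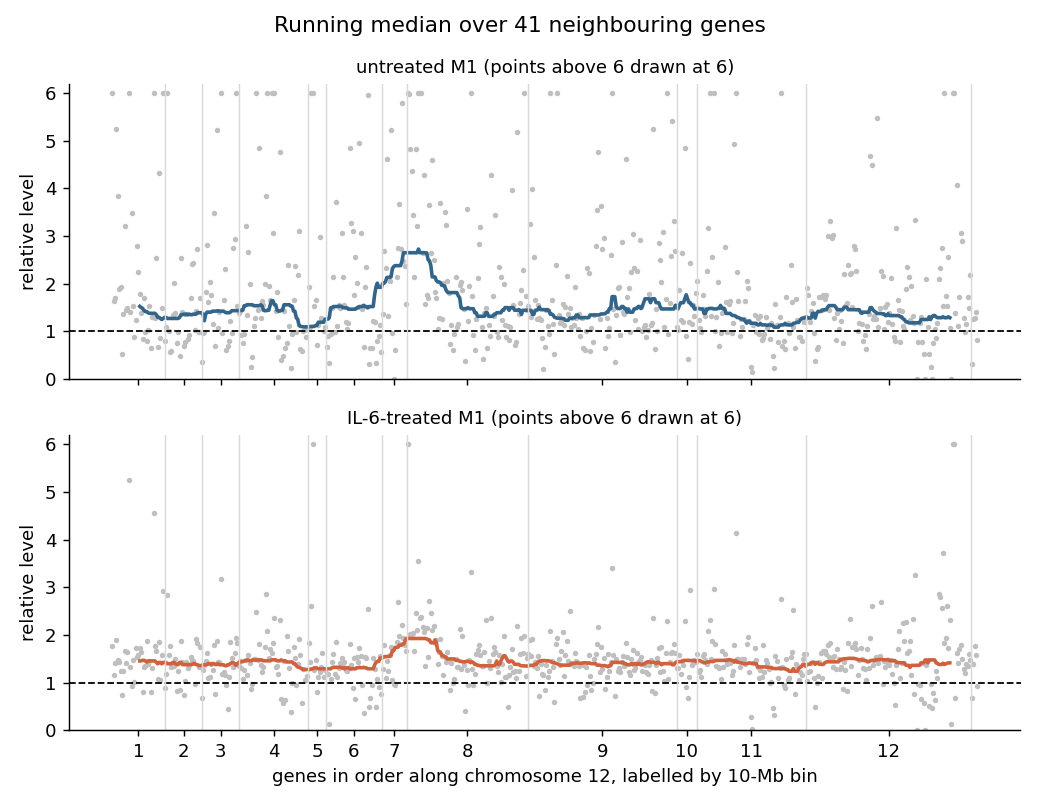
Relative level of 631 chromosome 12 genes with under 20% repeated sequence, in order along the chromosome (grey points), with the running median over 41 neighbouring genes (line), in untreated (top) and IL-6-treated M1 cells (bottom). Vertical lines are edges of 10-Mb bins, the dashed line is 1, and the line stays above 1 throughout with a rise across bins 7 and 8.

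A local rise stood out from 65 to 75 Mb. It was picked after its values were seen and is described without a test. Its 67 genes had medians of 2.02 in untreated cells (quartiles 1.25 and 3.54) and 1.65 after IL-6 (1.28 and 2.05), against 1.26 (0.826 and 1.94) and 1.33 (0.970 and 1.59) for the other 749. The quartile ranges of both parts overlap. After IL-6 59 of its 67 genes (88.1%) were above 1, beside 73.3% of the other 749. Of 244 bins of other autosomes, also moved by 5 Mb, 4 were as high after IL-6 and 3 in untreated cells.

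The rise was strongest between 70 and 71 Mb, where 18 genes had medians of 4.06 and 2.08. It was the highest of 25 steps of 1 Mb with at least 10 genes in both libraries. After IL-6 71 to 72 Mb came next at 1.87 (1.77 in untreated cells), and in untreated cells 32 to 33 Mb at 1.96. Genes there included *Rps29*, a small ribosomal subunit protein (36.2 and 7.61), *Arf6*, a GTPase of endocytic traffic (7.80 and 2.35), *Mgat2*, a Golgi glycosyltransferase (4.83 and 2.01), *Pole2*, a subunit of DNA polymerase epsilon (3.44 and 2.05), and *Sos2*, an exchange factor for Ras (2.65 and 2.16). *Map4k5*, a kinase, was at 3.66 and 2.72 over 126 windows, and *Atl1*, a GTPase that shapes the endoplasmic reticulum, at 2.65 and 2.46 over 80 windows. From 72 to 75 Mb the medians of the 1-Mb steps were between 1.26 and 1.43 after IL-6. In untreated cells the step from 72 to 73 Mb was still at 1.99, and the next steps were at 1.31 and 1.26.

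The values are also given without start sites. The 31 genes of this stretch whose windows did not hold the listed start site were at 1.97 and 1.61, against 1.26 and 1.36 for 291 such genes elsewhere on the chromosome. The long gene *Mdga2*, a neuronal adhesion protein, lay in this stretch and had 4240 and 5496 reads over 1072 windows, or 1.58 and 1.67.

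Long genes average over many windows and so show the spread-out level best. The 66 long spans with little repeated sequence had a median relative level of 1.25 ± 0.370 (SD over genes) in untreated cells and 1.38 ± 0.189 after IL-6. In untreated cells 55 of 66 and after IL-6 65 of 66 were above 1. On the other autosomes the share above 1 was 40.7% and 48.9% of 1635 long spans, which were not filtered for repeats. The exception after IL-6 was *Immp2l*, a mitochondrial inner membrane peptidase, with 4540 and 5909 reads over 1803 windows (0.707 and 0.812).

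The gene with most windows in each bin gives a single long span per bin. In order from bin 1 to bin 13 and as relative levels after IL-6, *Dtnb*, a dystrobrevin, was at 1.43. *Nbas*, of Golgi traffic, was at 1.42 and *Asap2*, an ARF GTPase activator, at 1.27. *Dgkb*, a diacylglycerol kinase, was at 1.05 and *Immp2l*, in bin 5, at 0.812. *Npas3*, a neuronal transcription factor, was at 1.24 and *Mdga2* at 1.67. *Gphn*, a scaffold of inhibitory synapses, was at 1.18, and *Rad51l1*, a homologue in recombination repair, at 1.55. *Nrxn3*, a presynaptic adhesion protein and the longest span with 2197 windows, was at 1.30. *Unc79*, a subunit of a sodium leak channel, was at 1.46. *Ptprn2*, a phosphatase-like protein of secretory granules, was at 1.19, and *Abcb5*, a membrane transporter, at 1.39. In untreated cells the same 13 genes ran from 0.707 (*Immp2l*) to 1.89 (*Dtnb*), and 9 of them were above 1. Those below 1 were *Asap2*, *Dgkb*, *Immp2l* and *Ptprn2*, in bins whose own medians were above 1.

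The comparison of the libraries asked whether IL-6 shifted the chromosome evenly. A gene entered when it had more than 21 reads, on the scale of the table, in either library, which held for 667 of 816 genes, and the other 149 were not compared. The log2 ratio of IL-6-treated to untreated cells, on recovered reads with 0.5 added, had a median of 0.07 (quartiles -0.47 and 0.35), beside 0.03 for all 18472 genes compared. At least 2-fold lower after IL-6 were 78 genes (11.7%), beside 13.4% of all genes. At least 2-fold higher were 11 genes (1.65%), beside 1.71%. Lower by any amount were 301 genes (45.1%), beside 48.3%. These shares were close to the background, so nothing here is called particular to chromosome 12.

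The directions depend on how the libraries are scaled. Scaled by 518 single windows in which both libraries had 22 or more reads, all log2 ratios are higher by 1.85, the median becomes 1.92, and 0 genes are 2-fold lower while 560 are 2-fold higher. Every "lower" and "higher" below is on the deposited scale. Under the other scaling a gene keeps its place in the order but often not its sign, and the median of every list below becomes positive.

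The ratio went with the strength of a gene in untreated cells. The median log2 ratio was 0.44 in 58 genes with an untreated mean under 5, 0.28 in 221 genes from 5 to 10, and -0.00 in 240 genes from 10 to 20. It was -0.78 in 99 genes from 20 to 40 and -1.48 in 49 genes from 40 upwards. The untreated mean enters both quantities. The 78 lower genes had a median untreated mean of 40.4 and none was under 12. Of these 78, 61 had the listed start site within their windows, beside 366 of the 667 compared. Their spans had a median of 8.5 windows, beside 27 for those compared.

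**Figure D5:**
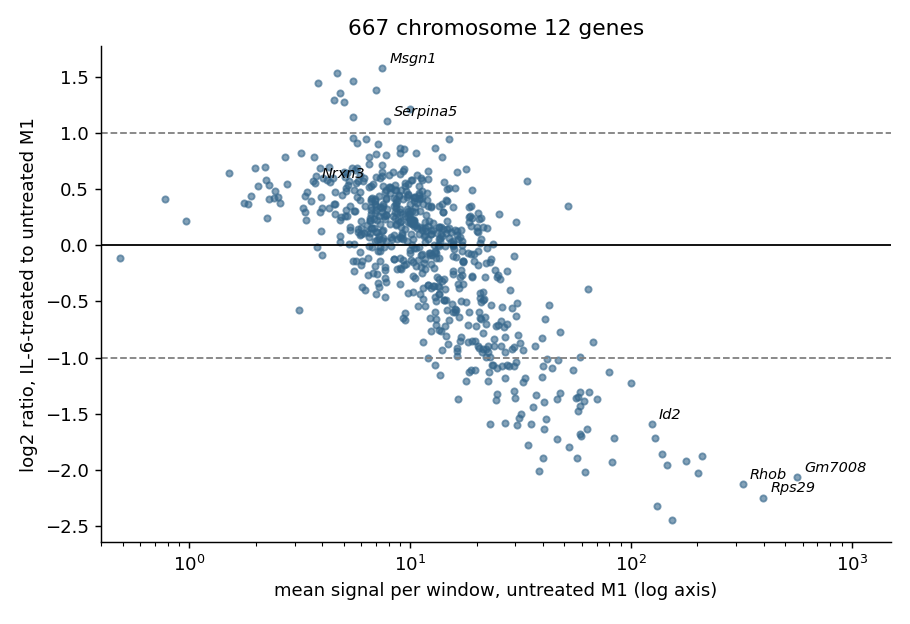
Log2 ratio of IL-6-treated to untreated M1 cells against the untreated mean per window (log axis) for the 667 chromosome 12 genes compared, on the deposited scale. Dashed lines mark 2-fold; strong genes such as *Rps29* (-2.25) and *Rhob* (-2.13) lie lowest, while scaling by strong single windows would move all points up by 1.85.

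Bins differed little in this ratio. Their medians ran from -0.15 in bin 3 to 0.28 in bin 5 over bins with at least 10 genes compared, and bin 13 was at 0.69 with 5 genes. The share of genes lower by 2-fold or more was highest in bin 3 with 6 of 30 and bin 1 with 8 of 41, beside 13.4% of all genes. Bins 8, 9 and 12 had 14 of 91, 13 of 116 and 13 of 126 such genes. Bin 11 had 5 of 94, bin 2 had 1 of 29 and bin 10 had 0 of 14. The 11 higher genes lay in bins 1, 2, 4, 11 and 12.

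The 5 strongest genes of the chromosome in untreated cells were all lower after IL-6 on the deposited scale, and lower by less than 2-fold under the other scaling. Gm7008, a predicted gene that shares its windows with the start of *Ifrd1*, had 1132 and 260 reads in 2 windows, or means of 566 and 135 (ratio 0.238, 0.208 to 0.273). *Rps29* had 1196 and 242 reads in 3 windows, or 399 and 83.7 (0.210, 0.182 to 0.241). *Rhob* was at 320.5 and 73.2, Gm9887 at 211 and 57.1, and 2410017P09Rik at 202 and 49.6. The largest differences were those of 1700012B15Rik (460 and 81 reads, ratio 0.183) and 2010109K11Rik (262 and 50 reads, 0.198). *Isca2*, of iron-sulfur cluster assembly, had 436 and 108 reads in 3 windows (0.257). In each of these the interval of the ratio lay below 0.5.

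Regulators of transcription and signalling were a list of 20 genes, all compared. After IL-6 5 were lower by 2-fold or more and 0 were higher by as much, beside 13.4% and 1.71% of all genes, and their median log2 ratio was -0.00. By any amount 10 were lower, beside 48.3% of all genes. *Id2*, an inhibitor of helix-loop-helix factors, had 249 and 79 reads in 2 windows (log2 ratio -1.60). *Max*, the partner of Myc, had 1350 and 577 reads in 34 windows (-1.17). *Nfkbia*, the inhibitor of NF-kappaB, had 218 and 97 reads in 4 windows (-1.11), and *Fos*, a subunit of AP-1, had 166 and 79 in 4 windows (-1.01). *Rhob* was the fifth. *Zfp36l1*, which promotes mRNA decay, was just inside 2-fold at -0.95. Lower by less were *Yy1* (-0.81), *Dnmt3a*, a DNA methyltransferase (-0.68), and *Batf* (-0.43). *Akt1* (-0.02), *Hif1a* (0.01) and *Jdp2* (0.07) were near 0, and the intervals of their ratios all include 1. Higher without reaching 2-fold were *Mycn* (0.66), *Gpr65*, a proton-sensing receptor (0.48), and *Ahr* (0.40). The ratio of *Gpr65* had an interval from 0.882 to 2.26. *Lgmn* (0.30), *Traf3* (0.29), *Gpr132* (0.20), *Bcl11b* (0.19) and *Asb2* (0.17) were higher by less. The interval for *Gpr132*, from 0.938 to 1.42, includes 1.

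Genes used in most cells were a list of 16, of which 15 were compared and *Srp54a* was not. Of these, 6 were lower by 2-fold or more, 0 higher by as much, and 14 lower by any amount, with a median log2 ratio of -0.67. Of all genes 13.4%, 1.71% and 48.3% did so. They included *Rps29* (-2.25), *Erh* (-1.73), *Rrm2*, a subunit of ribonucleotide reductase (-1.48), *Psma6*, of the proteasome (-1.36), and *Rps7*, of the ribosome (-1.04). *Psma3*, also of the proteasome, was at -0.98. *Odc1*, the first enzyme of polyamine synthesis, was the exception at 0.14, with an interval of its ratio from 0.778 to 1.55 and 34.0% repeated sequence. The median mean of this list was 13.9 in untreated cells and 9.92 after IL-6, with relative levels of 2.40 and 1.48.

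Genes of neurons and embryonic patterning had median means of 5.88 in untreated cells and 7.53 after IL-6. Most had log2 ratios above 0 on the deposited scale. Of 22 genes 20 were compared and 5 were lower by any amount, beside 48.3% of all genes, with a median log2 ratio of 0.43. *Nrxn3* had 8118 and 11492 reads (ratio 1.47, 1.43 to 1.51) and *Npas3* 5738 and 7545 (1.37, 1.32 to 1.41). The homeobox genes *Six4* (200 and 150 reads) and *Six6* (26 and 25) were within 2-fold. The median relative level of the list was 0.935 in untreated cells and 1.03 after IL-6, and 9 and 12 of the 22 genes were above 1. Short, GC-rich genes such as *Nkx2-1* (0.324 and 0.484), *Foxa1* (0.328 and 0.496) and *Twist1* (0.478 and 0.581) were well under 1 in both libraries.

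The serpin and *Tcl1* clusters and the imprinted domain were near or under the level of their GC class. In the serpin cluster 20 of 22 genes were compared, 0 were 2-fold lower and 1 was 2-fold higher, beside 13.4% and 1.71% of all genes. This was *Serpina5*, an inhibitor of protein C, with 47 and 98 reads in 6 windows (2.16, 1.51 to 3.13). The median relative level of the cluster was 0.943 and 1.10. The *Tcl1* family, a group of coactivators of Akt with 4 of 6 genes over 50% repeated, had 0 genes past 2-fold and medians of 0.732 and 1.10. In the imprinted domain *Dlk1* had 66 and 74 reads in 10 windows (0.388 and 0.485). *Rtl1* had 76 and 108 in 8 windows (0.633 and 0.992), and *Dio3* 24 and 35 in 2 windows (0.676 and 1.13). The medians of its 4 genes were 0.654 and 1.05, with 0 and 2 of them above 1. The 5 endocrine and liver genes ranged from *Pomc*, a hormone precursor, at 0.517 and 0.734 to *Dio2*, a thyroid hormone deiodinase, at 1.87 and 1.58. Their medians were 0.861 and 1.13.

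The immunoglobulin heavy chain locus was taken as the 41 genes whose symbols start with Igh, which leaves out genes of the region with other symbols. Of the 41 genes 18 had enough reads. Among these 3 were lower by 2-fold or more and 1, *Ighv15-2*, was higher by as much, beside 13.4% and 1.71% of all genes. The median relative level of the 41 genes was 1.17 in untreated cells and 1.32 after IL-6, and 12 of them were over 50% repeated. Over all genes, whatever their symbol, medians were lower at 115 to 116 Mb (0.857 and 0.854) and at 116 to 117 Mb (1.06 and 0.815). *Ighv1-67*, a variable segment of 1 window, had 52 and 64 reads, and its mean of 66.4 was among the 5 highest of the chromosome after IL-6. *Ighg1*, a constant region, had 45 and 84 reads in 3 windows (1.94, 1.33 to 2.85).

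The 11 genes at least 2-fold higher after IL-6 were short and had few reads, none of them more than 98. They included *Msgn1*, a factor of presomitic mesoderm (15 and 44 reads), *Fam110c* (14 and 40), *Prps1l1* (14 and 36) and *Sostdc1*, a BMP antagonist (23 and 61). Only *Serpina5* among them reached 100 reads over both libraries. Below it among genes with at least 100 reads came the pseudogene *Kif4-ps* (38 and 71), *Ighg1*, *Tcl1b4* (43 and 78), *Tcl1* (75 and 131), *Itgb8*, an integrin subunit (343 and 583), *Gpx2*, a glutathione peroxidase (39 and 66), and AI324046 (42 and 70). For *Itgb8* the ratio was 1.76 (1.54 to 2.02).

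Single windows could be isolated at 136 places on chromosome 12, from spans of 1 window or from transcripts that share an end. Over 21 reads were found in 23 (16.9%) of them in untreated cells and in 22 (16.2%) after IL-6, on the scale of the table. On the other autosomes it was 22.4% and 18.3% of 3580 windows. Besides *Rcor1*, the strongest were the 2 windows of Gm7008 with 770 and 177 reads and 362 and 83 reads. The 42 windows without a start site had medians of 7.0 and 8.31, against 8.0 and 8.31 for 94 windows with one. Among windows that could be isolated, the share with over 21 reads was thus lower on chromosome 12 in both libraries. These windows were not matched to those of other autosomes by kind of gene. The strongest on chromosome 12 included those of the variable segments *Ighv1-67*, *Ighv8-14*, *Ighv8-12* and *Ighv1-54*. The difference between the shares was not tested.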

How the data were processed

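The authors digested nuclei with DNase I, sequenced small fragments, aligned trimmed reads to NCBIM37 (mm9) with BWA, and summarised them with Seqmonk over coding spans (versions not given in the sources used here). The deposited signal was the mean and SD over the 700-bp windows of each span. How reads matching several sites were placed is not given in the sources used here. Mean times number of windows gave whole reads in untreated cells, and whole multiples of 1.04 after IL-6, within 0.00286 of a read. Whole-library depth was not known, so depth here means reads on spans. The table held 0 value columns of other samples.

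The members and lists were chosen with earlier results of these data known. GC content and repeated 32-base stretches were counted in the NCBIM37 genome. Ratios used reads with 0.5 added, and 95% Clopper-Pearson intervals. With 1 library per condition no test was made. Genes are named as the longest span per bin, the 5 highest means per library, the 8 largest rises and falls among genes with at least 100 reads, and list members. Genes of the stretches at 15 to 25 and 65 to 75 Mb, of the low clusters and of the strong windows were named after their values were seen. Some list members are not reported here. The steps were tested on simulated data. Python 3.11.15, numpy 2.4.6, pandas 2.3.3, scipy 1.17.1, numba 0.67.0 and matplotlib 3.10.9 were used. Other filters, bins, scalings and references were tried as alternatives.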

Additional observations from a re-analysis of the deposited data

How the results depend on the processing

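Of 78 alternative values 55 stayed within the limits set for them, 23 moved and 0 reversed. The untreated chromosome 12 level, 1.23 times the other autosomes, was 1.36 over spans of at least 50 windows, 1.13 as reads per window and 1.39 at the lower quartile. The IL-6 level of 1.25 was 1.33 and 1.18 under the first pair of these. With bins of 5 Mb, 14 of 25 bins were above the reference in untreated cells and 12 of 25 after IL-6. Scaling by strong single windows gave a median log2 ratio of 1.92, with 0 genes 2-fold lower and 560 higher. The number of 2-fold higher genes, 11, was 3 with more than 50 reads required and 37 with no minimum. The GC-class level and its alternatives were chosen after seeing the data. In untreated cells it was 1.38 with at least 10 windows, 1.37 against a reference without chromosomes 3, 8, 9 and 15, 1.42 over genes with under 20% repeats, and 1.37 without predicted, immunoglobulin and Serpina genes. After IL-6 the first 3 of these gave 1.39, 1.41 and 1.42. The highest bin over the lowest, also tried with moved bins after seeing the data, went from 2.47 to 2.52 in untreated cells and from 1.31 to 1.91 after IL-6 in relative level, and from 2.54 to 2.57 and from 1.81 to 2.48 in mean. The causes of these shifts were not tested. No paired analysis was possible because there was a single library for either condition, and for the same reason no replicate could be left out. Genes with few reads had wide counting intervals.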
